A study of Mus musculus with 3 samples.

Results

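The genes described here encode the nuclear subunits of the mitochondrial respiratory chain and the ATP synthase, with the assembly factors that share their names. The rule that defines them uses the symbol and no measured value: it takes every gene whose name in the platform annotation begins with Nduf (complex I), Uqcr (complex III), Cox followed by a digit from 4 to 8 (complex IV) or Atp5 (complex V). The rule found 85 of the 19938 genes that had a probe set with a single symbol: 43 for complex I, 8 for complex III, 17 for complex IV and 17 for complex V. A gene with several such probe sets was represented by the one of highest mean value.

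Complex I passes electrons from NADH to ubiquinone, complex III passes them on to cytochrome c, and complex IV hands them to oxygen. The protons pumped on the way drive complex V, the ATP synthase, through its membrane ring of c subunits. In macrophages, inflammatory activation is known to shift ATP production from this pathway towards glycolysis, and fatty acid oxidation depends on it. The nuclear transcription factors NRF1, the Ets factor GABP, YY1 and ERRα, with their coactivator PGC-1α, are known regulators of these genes.

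RNA came from thioglycollate-elicited peritoneal macrophages of male Angptl4-/- mice (strain C57Bl/6J), so all groups lack the gene for the lipoprotein lipase inhibitor ANGPTL4. After 2 days in culture the cells received PBS, intralipid, a triglyceride emulsion, at 0.5 mM triglyceride for 6 h, or the same intralipid in the presence of 2.5 µg/mL recombinant mouse ANGPTL4, added 1.5 h ahead. The age of the mice is not given in the sources used here. Each of the 3 groups was measured on 1 Affymetrix array that carried RNA pooled from 3 samples. There is therefore no replicate, no test and no p-value, and "higher" or "lower" refers to these pooled arrays. The precision is limited by the number of arrays.

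Values are the deposited log2 expression values, and a fold is the ratio on the linear scale. A gene was taken as past the floor where it reached the median log2 value of the single-symbol probe sets of that array, which was 5.00 with PBS, 4.98 after intralipid and 4.99 after intralipid plus ANGPTL4. Of 85 members, 76 reached that level on at least 1 array. The 9 that did not were Cox4i2, Cox6a2, Cox6b2, Cox7b2, Cox8b, Cox8c, Ndufa4l2, Ndufaf5 and Ndufaf6. Their log2 values lay between 2.57 and 4.97. Most of these are forms known from other tissues, such as Cox6a2 and Cox8b from heart and skeletal muscle and Cox6b2 and Cox8c from testis. The arrays carried 9 of 10 macrophage markers past the floor. The median log2 value of all 10 was 10.23, 10.65 and 10.53 in the order PBS, intralipid, ANGPTL4 added. Cd163 was the marker below the floor. Fibroblast markers passed in 5 of 6 cases, with medians over all 6 of 8.09, 8.08 and 8.08. Neutrophil markers passed in 1 of 8 cases (S100a8) and mesothelial markers in 1 of 5 (Wt1). No marker of B cells, mast cells or T and NK cells passed the floor. Fewer cells of a type and less RNA per cell cannot be told apart in such samples, and the part of other cells in the results was not tested. Angptl4 itself had a log2 value of 4.92 on each array.

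With intralipid, the 76 respiratory chain genes past the floor lay at or below their PBS level in the deposited values, by small amounts and with 2 exceptions, Ndufa6 and Atp5g2. No member was 2-fold apart in any of the 3 comparisons. In the comparison of intralipid with PBS, 1.33% of all genes were at least 2-fold lower and 2.52% at least 2-fold higher. With ANGPTL4 added to intralipid, 2.3% were at least 2-fold lower and 2.53% higher than with intralipid alone, and 0.0402% and 0.843% against PBS. A threshold of 1.2-fold was therefore used as well (0.26 on the log2 scale). By this threshold 15 of 76 members (19.7%) were lower with intralipid, beside 18.1% of the 10018 genes past the floor, so that share is close to the background. On the other side, 0 of 76 members were at least 1.2-fold higher, where 10.1% of all genes were. The count of 0 was the same after centring the arrays, cyclic loess and quantile normalization, and the background then ranged from 9.44% to 10.5%. With a stricter floor, the 75th percentile of each array, 12 of 64 members (18.8%) were at least 1.2-fold lower and 0 higher, beside 21.8% and 14.6% of all genes.

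Counted by any amount (0.005 or more on the log2 scale), 48 of 76 members (63.2%) were lower with intralipid, 26 were identical and 2 were higher. Over all genes, 44.3% were lower, 32.6% identical and 23.1% higher. Exact ties were common, and 25.5% of all genes past the floor were identical on all 3 arrays. The origin of these ties was not tested, so an identical value is not read as proof of an unchanged gene. These splits depend on the scaling, because identical values move with it: members lower and higher numbered 48 and 28 after cyclic loess, 53 and 17 after quantile normalization, and 74 and 1 after centring. Over all genes the shares lower and higher were then 42.9% and 47.9%, 51.9% and 38.4%, and 79% and 20.4%. The median log2 difference of the 76 members was -0.05, with a range from -0.60 to 0.20, and that of all genes was 0.00. The robust SD over all genes was 0.20 for this comparison, so most members lie within the general spread of these arrays.

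**Figure D1:**
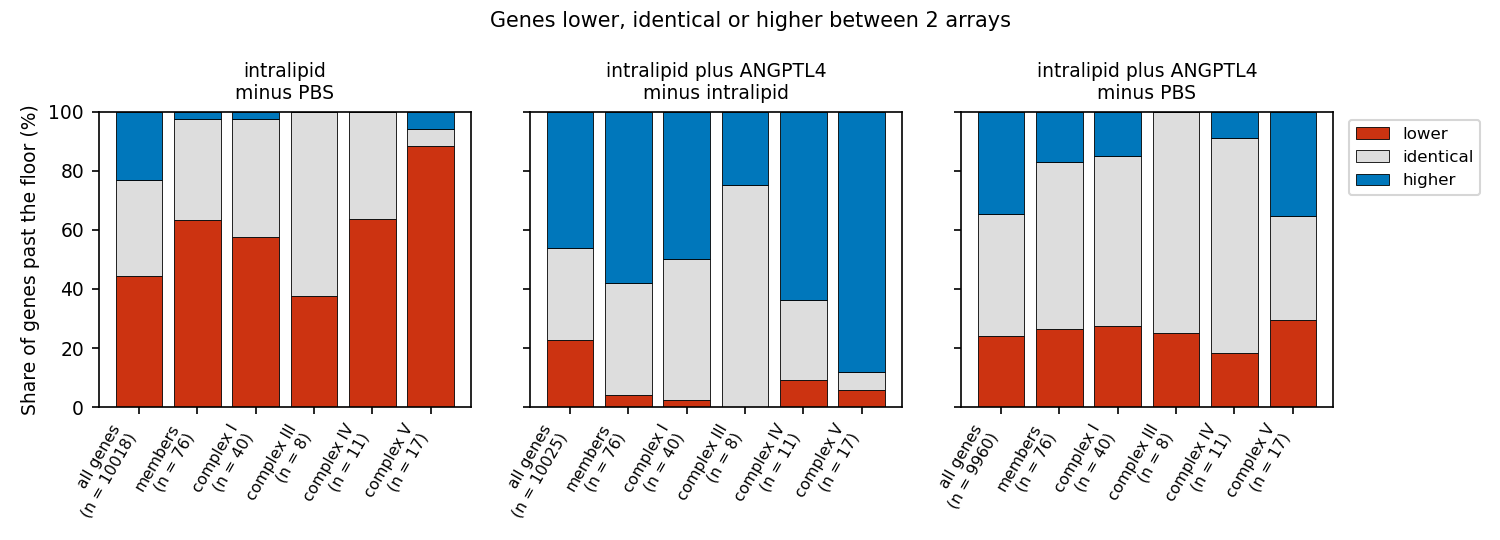
Share of genes past the expression floor (y axis, percent) that were lower, identical (log2 difference under 0.005) or higher between 2 arrays, for all genes, the members and each complex (x axis, with the number of genes), in the 3 comparisons. In the left panel 15 of 17 complex V genes are lower with intralipid, against 3 of 8 for complex III, and in the right panel 43 of 76 members are identical.

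The complexes differed in how many of their genes were lower with intralipid. For complex V it was 15 of 17 genes, with a median log2 difference of -0.15. For complex IV it was 7 of 11, with a median of -0.04, and for complex I 23 of 40, with a median of -0.04. For complex III it was 3 of 8, with a median of 0.00. At least 1.2-fold lower were 4 of 17 genes of complex V, 4 of 11 of complex IV, 6 of 40 of complex I and 1 of 8 of complex III, beside 18.1% of all genes. Of the 6 in complex I, 3 were assembly factors and 1 was Ndufa4, known as a complex IV subunit. The complex I core subunits gave 0 of 6 and the supernumerary subunits 2 of 28. Counted by any amount, the difference between complexes depends on the scaling. After centring, 16 of 17 genes of complex V, 11 of 11 of IV, 39 of 40 of I and 8 of 8 of III were lower, beside 79% of all genes. After cyclic loess the counts were 15, 7, 23 and 3, and after quantile normalization 16, 8, 26 and 3, in the same order. Identical values on all 3 arrays were found in 1, 3, 14 and 5 of these genes, in the order V, IV, I and III. The complexes also differed in level, with median log2 values with PBS of 9.85, 9.16, 7.95 and 8.45 in that order, beside 7.14 for all genes. Past the stricter floor, 50.1% of all genes were lower with intralipid and 20.2% identical, and the part of level was not tested. The complexes hold few genes each, and their differences were not tested.

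**Figure D2:**
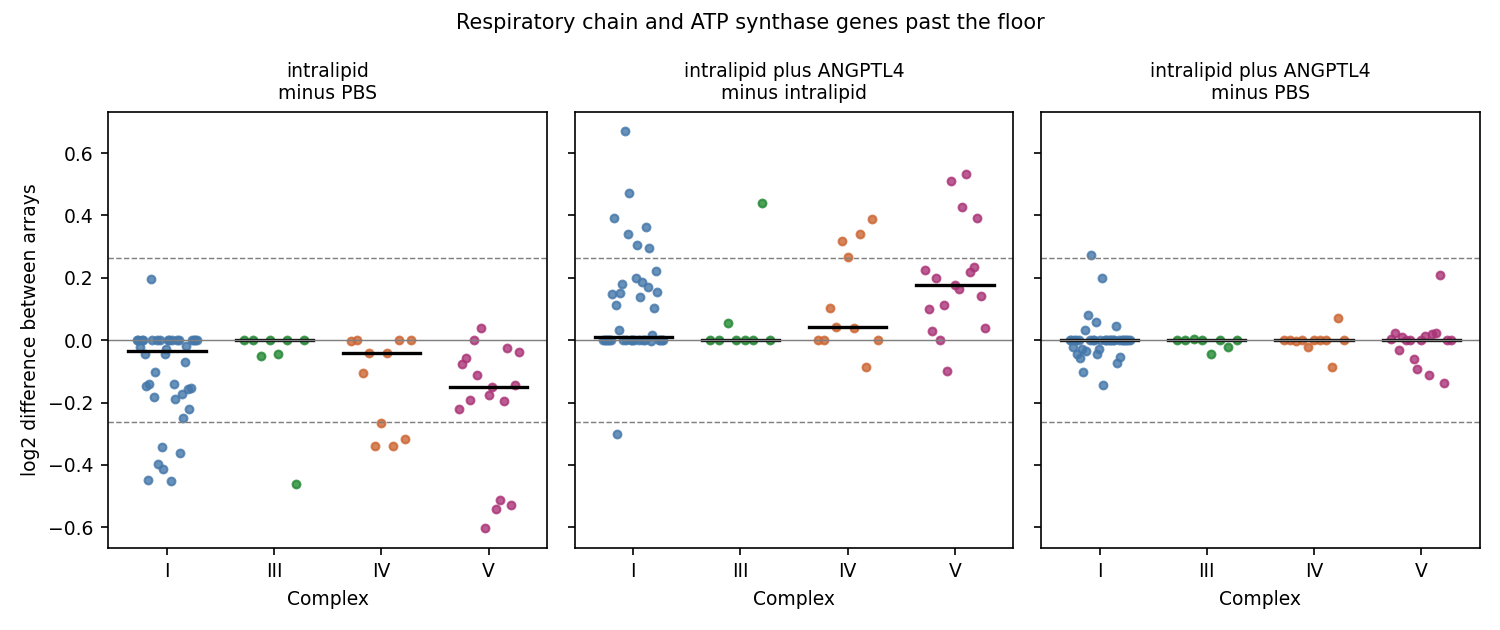
Log2 difference between 2 arrays (y axis) for each member past the floor, by complex (x axis), in the 3 comparisons; each point is 1 gene, black lines are medians and dashed lines mark 1.2-fold. Complex V has the median farthest from 0 in the left panel (-0.15) and in the middle panel (0.18), and all medians lie at 0.00 in the right panel.

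Within complex V, the genes with the largest differences belonged to the membrane part. Atp5g3 (probe set 10483756), which encodes a form of the c subunit of the rotating ring, had a log2 value of 9.96 with PBS, 9.35 after intralipid and 9.86 after intralipid plus ANGPTL4. It was 1.52-fold lower with intralipid, the only member past 1.5-fold in that comparison, where 5.59% of all genes were at least 1.5-fold lower and 5.08% at least 1.5-fold higher. The other c subunit genes, whose mature products are known to be the same protein, were closer to PBS. Atp5g1 had log2 values of 7.79, 7.67 and 7.79, and Atp5g2 values of 10.05, 10.09 and 9.99, in the same order of arrays. Atp5g2 was, with Ndufa6 of complex I, the only member past the floor whose chosen probe set was higher with intralipid than with PBS. Probe set 10447566 of Atp5g2 was also 0.04 higher on the log2 scale, while its probe set 10433049 was identical on these arrays.

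Atp5j2 (subunit f) had log2 values of 9.76 with PBS, 9.22 after intralipid and 9.65 after intralipid plus ANGPTL4. Atp5mpl, a small proteolipid of the membrane part, had values of 9.68, 9.15 and 9.54 in that order. For Atp5k (subunit e) they were 8.43, 7.92 and 8.45. On each of these genes the intralipid array was the lowest, by 1.45-fold, 1.44-fold and 1.43-fold against PBS. Subunit e is known to help join ATP synthases into dimers, as is subunit g, whose gene Atp5l was 1.14-fold lower with intralipid. The fifth gene of the membrane group, Atp5md, had log2 values of 9.85, 9.82 and 10.06 and was thus higher with ANGPTL4 than on both other arrays.

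The catalytic F1 head and the stalk that holds it in place were closer to PBS. Among the F1 genes, Atp5a1 (α subunit) had log2 values of 11.14, 10.92 and 11.15 in the order PBS, intralipid, ANGPTL4 added, and Atp5d (δ subunit) 9.93, 9.74 and 9.94. Differences from PBS with intralipid were -0.08 for Atp5b (β subunit, which carries the catalytic sites), -0.06 for Atp5c1 (γ subunit) and 0.00 for Atp5e (ε subunit) on the log2 scale. The 4 genes of the peripheral stalk, Atp5h, Atp5j, Atp5o and Atp5pb, were lower with intralipid by 0.04 to 0.18 on the log2 scale. On the chosen probe sets, none of the 9 genes of these groups reached 1.2-fold. A second probe set of Atp5pb differed by -0.27 on the log2 scale with intralipid, just past that threshold.

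In complex I, the core subunits, most of which carry redox centres, differed little. Ndufs1, the largest iron-sulphur subunit, was the farthest from PBS, with log2 values of 8.90 with PBS, 8.65 after intralipid and 8.94 after intralipid plus ANGPTL4. Ndufs7 was 0.15 lower with intralipid on the log2 scale and Ndufs3 0.07 lower. Ndufs8, Ndufv1 and Ndufv2 were identical on all arrays, so 3 of the 6 measured core genes were lower and 0 higher. These counts stand beside 44.3% of all genes lower and 23.1% higher.

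Of the 28 supernumerary subunits of complex I, 15 (53.6%) were lower with intralipid, 12 identical and 1 higher, and 2 (7.14%) were at least 1.2-fold lower. Among all genes, 44.3% were lower, 32.6% identical and 23.1% higher, and 18.1% were at least 1.2-fold lower. Ndufb3, of the membrane arm, had log2 values of 7.01, 6.56 and 6.87 in the order PBS, intralipid, ANGPTL4 added. Ndufc1 had values of 8.38, 8.02 and 8.38. The exception upward was Ndufa6, with log2 values of 7.44, 7.64 and 7.34, which was highest with intralipid and 1.23-fold lower once ANGPTL4 was added. Ndufa4, placed here by its name and known to be a subunit of complex IV in mammals, had values of 10.35, 9.90 and 10.29.

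Assembly factors of complex I build the enzyme and are not part of it. With intralipid they were lower in 4 of 5 cases past the floor, 3 of them by at least 1.2-fold. The shares over all genes were 44.3% and 18.1%. Ndufaf1 had log2 values of 7.19 with PBS, 6.79 after intralipid and 7.46 after intralipid plus ANGPTL4, so the array with ANGPTL4 was the highest. Ndufaf4 had values of 6.70, 6.29 and 6.76, and Ndufaf3 of 6.89, 6.55 and 6.89. Ndufaf2 was identical on all arrays, and Ndufaf7 was 0.05 lower with intralipid on the log2 scale.

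In complex III, Uqcrh stood alone. It encodes the hinge protein that links cytochrome c1 with cytochrome c, and its log2 values were 9.34 with PBS, 8.88 after intralipid and 9.32 after intralipid plus ANGPTL4, a 1.38-fold lower value with intralipid. Uqcrc2, a core protein, and Uqcrb, which takes part in ubiquinone binding, were 0.04 and 0.05 lower on the log2 scale. On their chosen probe sets, Uqcrc1, Uqcrq, Uqcr10, Uqcr11 and Uqcrfs1, which encodes the Rieske iron-sulphur protein, were identical on all 3 arrays. A second probe set of Uqcr11 had log2 values of 6.53, 6.47 and 6.53 in the same order of arrays.

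In complex IV, 4 of the 10 ubiquitous subunits measured were at least 1.2-fold lower with intralipid, where 18.1% of all genes were. Cox7a2 had log2 values of 8.14, 7.80 and 8.14 in the order PBS, intralipid, ANGPTL4 added. Cox6b1, a subunit on the side facing cytochrome c, had values of 9.84, 9.51 and 9.82. Cox7b, known in humans to be needed for assembly of the complex, had values of 8.83, 8.51 and 8.90, and Cox6c values of 10.29, 10.02 and 10.29. Cox6c lay just inside the threshold, at -0.27 on the log2 scale. It fell outside after cyclic loess and with the mean over its probe sets (-0.24), which left 3 genes. The intralipid array was the lowest for all 4 genes. Cox4i1, which carries an ATP-binding regulatory site, had a log2 value of 9.76 on each array, and Cox5a and Cox8a were identical on all arrays too. Cox7a2l, known for its part in joining complexes III and IV into supercomplexes, had values of 9.41, 9.41 and 9.32. Its second probe set had values of 8.88, 8.92 and 8.92. Among the tissue isoforms only Cox7a1 passed the floor, with values of 5.51, 5.47 and 5.51. The widely expressed form Cox6a1 had values of 9.16, 9.12 and 9.16, while its muscle form Cox6a2 stood at 4.97 on each array, below the floor.

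**Figure D3:**
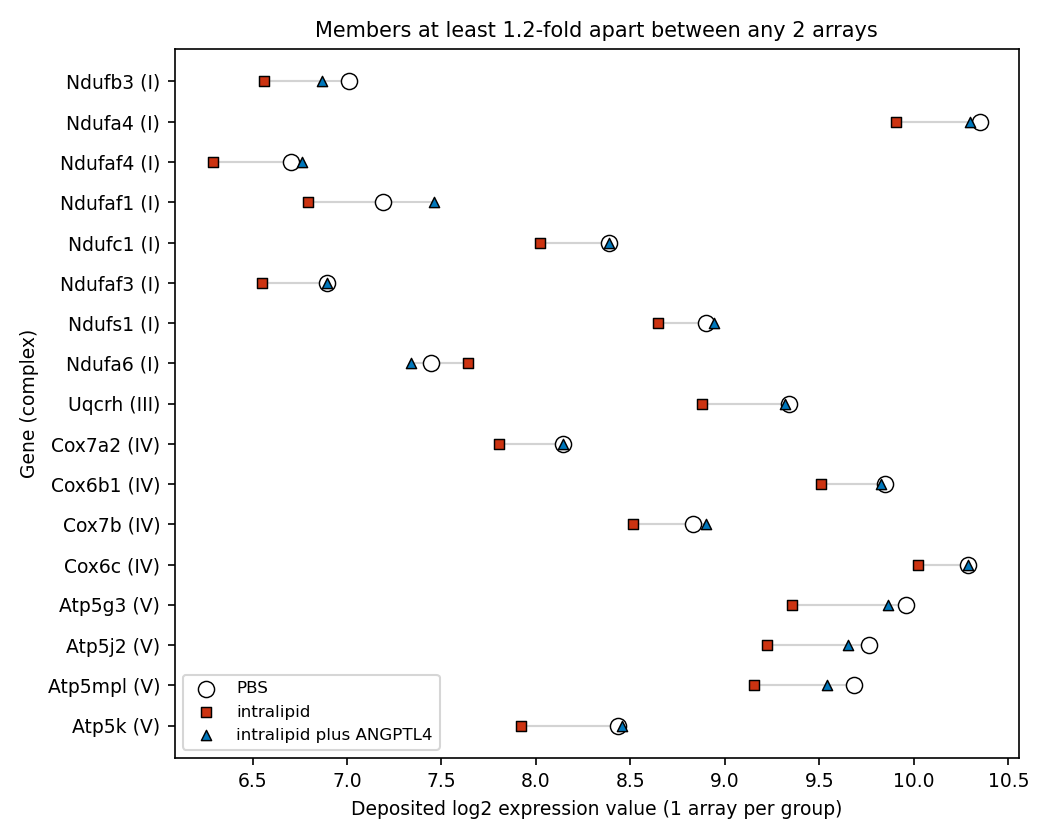
Deposited log2 expression value (x axis) of the 17 members at least 1.2-fold apart between any 2 arrays (y axis, complex in brackets), with 1 symbol per array. The intralipid array is the lowest for 16 genes and the highest for Ndufa6, and the array with ANGPTL4 lies above PBS by 1.21-fold for Ndufaf1.

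With ANGPTL4 added to intralipid, these genes lay close to their PBS values. No array had ANGPTL4 without intralipid, so its effect by itself was not measured. The comparison with intralipid alone shares the intralipid array with the one above. The opposite sign of both is thus partly built in, and the values are given side by side. Of 76 members, 44 (57.9%) were higher on the array with ANGPTL4 than on the intralipid array, 29 identical and 3 lower, beside 46.1% of all genes higher, 31.1% identical and 22.8% lower. After cyclic loess 43 members were higher and 32 lower, and after quantile normalization 42 and 33. Over all genes, 44.4% were then higher and 46.7% lower after cyclic loess, and 41.7% and 57% after quantile normalization. At least 1.2-fold higher were 16 members (21.1%), beside 21.6% of all genes. At least 1.2-fold lower was 1 member, Ndufa6 (1.32%), beside 10% of all genes. With the stricter floor, 1 of 64 members was at least 1.2-fold lower and 13 were higher, beside 14% and 26.1% of all genes. The median log2 difference was 0.05 for the members and 0.00 for all genes. By complex it was 0.18 for V, 0.04 for IV, 0.01 for I and 0.00 for III.

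The largest difference in this comparison was that of Ndufaf1, 1.59-fold higher with ANGPTL4 and the only member past 1.5-fold, which 8.28% of all genes reached upward and 4.97% downward. Atp5k was 1.45-fold higher, Atp5g3 1.42-fold, Ndufaf4 1.39-fold, Uqcrh 1.36-fold and Atp5j2 1.35-fold. Ndufs1 was 1.23-fold higher. Against PBS its deposited intralipid value missed 1.2-fold, and it passed that threshold after centring, at -0.29 on the log2 scale. It stayed short of it after cyclic loess and after quantile normalization, at -0.24 each.

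Against PBS, the array with intralipid plus ANGPTL4 had 43 of 76 members (56.6%) at an identical value, 20 lower and 13 higher. Over all genes, 41.3% were identical, 24% lower and 34.6% higher. Such ties are not read as an exact return to PBS. After centring, 68 members were lower and 7 higher, after quantile normalization 66 and 7, and after cyclic loess 58 and 12, so the size of the split depends on the scaling. Over all genes the shares lower and higher were 70.4% and 28% after centring, 70.9% and 27.3% after quantile normalization, and 42% and 33.5% after cyclic loess. Only Ndufaf1 was at least 1.2-fold higher (1.21-fold), beside 7.34% of all genes, and 0 members were at least 1.2-fold lower, beside 3.78%. At 1.5-fold there were 0 members, beside 0.532% of all genes lower and 2.37% higher. With the stricter floor, 0 of 63 members were at least 1.2-fold lower and 1 was higher, beside 4.73% and 9.5% of all genes. Ndufaf1 was under 1.2-fold after centring and after quantile normalization. The median log2 difference was 0.00 for the members and for all genes, and the members ranged from -0.14 (Ndufb3) to 0.27 (Ndufaf1). The robust SD over all genes was 0.10 for this comparison. Of the 15 genes at least 1.2-fold lower with intralipid, 11 (73.3%) lay within 0.1 of PBS on the log2 scale when ANGPTL4 was present. Among all 1809 genes at least 1.2-fold lower with intralipid, 48.8% did. That wider set held 560 genes at least 1.5-fold lower, and the members 1. A fixed window is harder to reach after a larger difference, so the 2 shares are not directly comparable.

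Genes that work with these complexes were taken from lists made by function, with earlier results of these data known. Complex II, which oxidises succinate, had 4 of 4 genes lower with intralipid and 2 at least 1.2-fold, beside 44.3% and 18.1% of all genes. Sdhd, a membrane anchor, had log2 values of 8.98 with PBS, 8.42 after intralipid and 8.99 after intralipid plus ANGPTL4, and Sdhc, the other anchor, 9.45, 9.01 and 9.34. Sdha, the catalytic subunit, differed by 0.01. Cytochrome c (Cycs) had values of 8.97, 8.97 and 9.15, and cytochrome c1 (Cyc1) was identical on all arrays. Of the genes of the mitochondrial genome, ND3 and COX2 could be named. ND3, a membrane subunit of complex I, had values of 10.80, 9.99 and 10.88, and COX2, of complex IV, 12.15 on each array.

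Among further assembly factors of complex I, 6 of 7 past the floor were at least 1.2-fold lower with intralipid (85.7%), beside 18.1% of all genes. The median log2 difference was -0.37. This short list, too, was made with earlier results known, so its share is descriptive only. Tmem126b had values of 7.78 with PBS, 6.80 after intralipid and 7.72 after intralipid plus ANGPTL4. For Acad9 they were 7.11, 6.35 and 7.27, and for Dmac1 7.93, 7.34 and 7.86. Tmem126b and Acad9 are known, with Ecsit and Ndufaf1, as parts of the assembly complex that builds the membrane arm, and Ecsit was 1.25-fold lower. Of 5 assembly factors of complex III past the floor, 1 was at least 1.2-fold lower with intralipid. Their median log2 difference was -0.008. That gene, Uqcc3, had a value of 7.78 with PBS and 7.86 with ANGPTL4 added, and was 1.71-fold lower with intralipid than with PBS. Of 21 assembly factors of complex IV, 3 were at least 1.2-fold lower (Coa3, Higd2a and Lrpprc) and 1 higher (Cox17, a copper chaperone, 1.25-fold). Of 4 complex V assembly and inhibitor genes past the floor, 1 was at least 1.2-fold lower (Atpaf1). Of 6 carriers and channels 0 reached 1.2-fold with intralipid, and of 9 ubiquinone synthesis genes 0 did. Each of these counts stands beside 18.1% of all genes lower and 10.1% higher by that threshold.

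The regulators of mitochondrial gene expression did not move in one direction. Ppargc1a, which encodes PGC-1α, had a log2 value of 4.05 with PBS, 7.06 after intralipid and 4.12 after intralipid plus ANGPTL4. It was 8.06-fold higher with intralipid than with PBS, or 4.18-fold against the floor, since it lay below the floor on both other arrays. A second Ppargc1a probe set had values of 2.66, 5.39 and 2.72. Tfb2m, a factor that starts transcription of the mitochondrial genome, went the other way, with values of 7.45, 6.38 and 7.76. It was 2.10-fold lower with intralipid than with PBS, and 2.59-fold higher on the array with ANGPTL4 than on the intralipid array. Its relative Tfb1m was 1.40-fold lower with intralipid and Ppargc1b 1.34-fold lower. Gabpb1, a subunit of GABP, was 1.38-fold higher. Nrf1 had values of 6.31, 6.31 and 6.41, and Esrra, which encodes ERRα, was identical on all arrays. Of the 12 regulators, 3 were at least 1.2-fold lower with intralipid (25%) and 2 higher (16.7%), not far from the 18.1% and 10.1% of all genes.

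**Figure D4:**
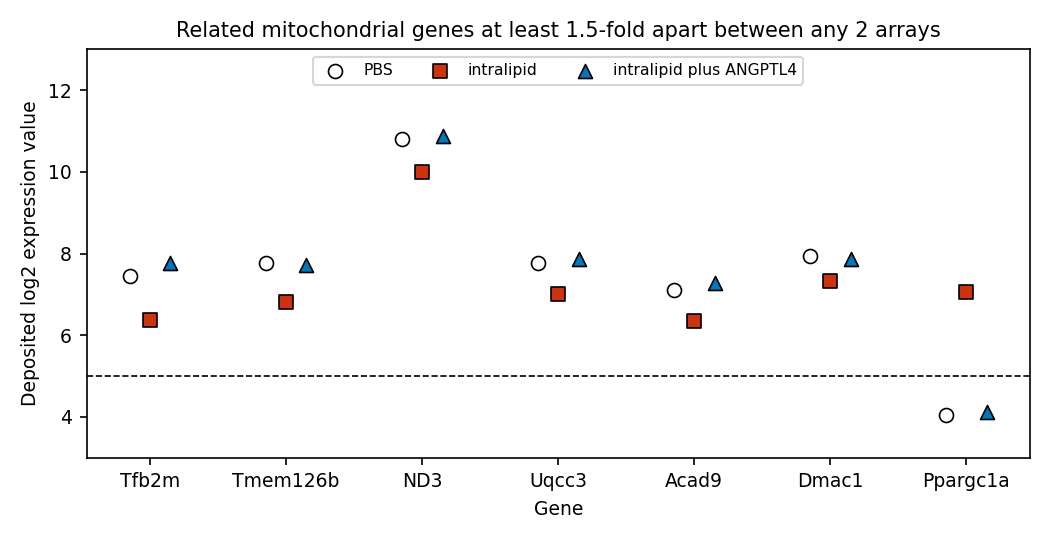
Deposited log2 expression value (y axis) on each array for the 7 related genes at least 1.5-fold apart between any 2 arrays (x axis); the dashed line is the floor of the PBS array. For 6 genes the intralipid array is the lowest, and for Ppargc1a it is the highest, with both other arrays below the floor.

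Some promoters of the members hold short sequence motifs, a feature that the choice by name did not use. RefSeq (GRCm38.p6) gave windows from 250 bases before to 50 bases after the transcription start for 70 of 85 members, 75 windows in all. Exact matches were counted on both strands. The NRF1 motif, whose letters are the capitals in the Uqcrc1 window printed with the others, was found in 7 windows (9.33%), beside 0.971% of all 32851 windows and 1.33% of the 21262 windows of protein-coding genes. The core CCGGAAG of the GABP type was in 16 (21.3%), beside 8.86% and 11.6%. The YY1 motif AAGATGGCG was in 7 (9.33%), beside 1.4% and 1.83%. The ERRα motif TCAAGGTCA was in 1 window (1.33%), that of Atp5g3, beside 0.423% and 0.334%, and the cAMP response element TGACGTCA in 4 (5.33%), beside 1.79% and 2.23%.

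The YY1 letters mostly lay just after the start. All 7 matches ran in the direction of the gene, and 6 of them, in Ndufc1, Atp5j2, Ndufs7, Ndufa9, Ndufs6 and Ndufs4, began 23 to 36 bases into the transcript. Among all windows of protein-coding genes with these letters, 52.1% had them in that direction after the start. The NRF1 motif and the GABP core occurred both in members at least 1.2-fold lower with intralipid and in members identical on all arrays. Among 13 windows of members at least 1.2-fold lower with intralipid, 2 held the NRF1 motif, 4 the GABP core and 2 the YY1 motif. Among 20 windows of members past the floor and identical on all arrays, the counts were 1, 4 and 0. The ERRα motif was in 1 of the 13 and 0 of the 20 windows, and the cAMP response element in 0 and 2. These counts are small, and their differences were not tested. A match describes letters only and does not show that a factor binds.

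The windows of the 4 members farthest below PBS with intralipid for which a window was given are shown with that of Uqcrc1, whose value was identical on all arrays. They were picked after the values were known. All are in the GRCm38.p6 build, read 5′ to 3′ in the direction of the gene: Atp5g3 from chr2:73911277-73911576 (minus strand), Atp5j2 from chr5:145191492-145191791 (minus strand), Atp5k from chr5:108434350-108434649 (minus strand), Uqcrh from chr4:116075021-116075320 (minus strand) and Uqcrc1 from chr9:108936398-108936697 (plus strand). Capitals mark the ERRα motif in Atp5g3, the YY1 motif in Atp5j2, the NRF1 motif and then the GABP core in Atp5k, the GABP core in Uqcrh and the NRF1 motif in Uqcrc1. The ERRα motif and both GABP cores lie as their reverse complement.
Atp5g3: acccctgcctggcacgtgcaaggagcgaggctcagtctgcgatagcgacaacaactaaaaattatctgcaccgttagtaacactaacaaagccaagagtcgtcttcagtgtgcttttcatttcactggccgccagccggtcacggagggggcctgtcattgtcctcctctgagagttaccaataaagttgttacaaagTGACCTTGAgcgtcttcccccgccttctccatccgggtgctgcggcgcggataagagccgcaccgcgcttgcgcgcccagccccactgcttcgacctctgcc
Atp5j2: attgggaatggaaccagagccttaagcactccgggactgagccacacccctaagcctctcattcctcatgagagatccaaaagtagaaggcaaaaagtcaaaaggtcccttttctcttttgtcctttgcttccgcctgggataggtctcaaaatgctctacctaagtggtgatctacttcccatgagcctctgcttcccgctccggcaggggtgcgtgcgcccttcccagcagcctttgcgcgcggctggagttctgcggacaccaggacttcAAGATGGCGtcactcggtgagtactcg
Atp5k: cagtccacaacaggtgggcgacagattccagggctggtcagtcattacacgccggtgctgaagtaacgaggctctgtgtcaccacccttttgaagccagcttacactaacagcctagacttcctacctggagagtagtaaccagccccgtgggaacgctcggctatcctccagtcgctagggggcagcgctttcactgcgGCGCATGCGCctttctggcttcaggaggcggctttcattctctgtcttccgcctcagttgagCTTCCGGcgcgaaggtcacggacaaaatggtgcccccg
Uqcrh: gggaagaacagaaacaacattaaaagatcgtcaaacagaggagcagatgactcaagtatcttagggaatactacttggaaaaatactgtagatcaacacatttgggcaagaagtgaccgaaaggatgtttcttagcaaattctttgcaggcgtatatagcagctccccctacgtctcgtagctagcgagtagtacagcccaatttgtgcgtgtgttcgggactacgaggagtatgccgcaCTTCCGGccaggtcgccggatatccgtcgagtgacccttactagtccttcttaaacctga
Uqcrc1: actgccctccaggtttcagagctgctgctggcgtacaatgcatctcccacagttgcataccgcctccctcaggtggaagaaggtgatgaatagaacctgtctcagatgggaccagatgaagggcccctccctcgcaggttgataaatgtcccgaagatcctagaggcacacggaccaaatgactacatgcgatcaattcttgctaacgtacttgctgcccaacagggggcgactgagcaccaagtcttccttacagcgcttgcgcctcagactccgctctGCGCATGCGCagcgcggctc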

How the data were processed

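The authors deposited a log2 value for every probe set of each array, made with RMA per the submitters' processing notes. Its version, the chip definition and the genome build were not given in the sources used here. Each array carried RNA pooled from 3 samples, per the labels, with 100 ng labelled and an integrity number over 8.

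Values were used as deposited. Of 35556 probe sets, 21789 had a single symbol in GEO's platform annotation, which gave 19938 genes. All 85 members had their gene identifier in the RefSeq table. The 6 probe sets with several symbols, at least 1 of them of a member family, were left out. A gene entered a comparison where it reached the floor on either array. The named genes are the members at least 1.2-fold apart in any comparison, core subunits and isoform pairs, and related genes at least 1.5-fold apart; others named serve to account for members. Members and lists were chosen with earlier results of these data known. On all 3 arrays, 30.3% of the members past the floor and 25.5% of all genes past it held identical values (within 0.005). Alternatives were other floors, scalings (limma 3.58.1, R 4.3.3), probe set rules, thresholds and member sets. The summary script (Python 3.11.15, pandas 2.3.3) was tested on simulated data.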

Additional observations from a re-analysis of the deposited data

How the results depend on the processing

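No paired analysis was possible because each group had 1 array, and for the same reason no array could be left out. A median was taken as moved where it changed by over 0.05 on the log2 scale, and a count where it changed by over 1.5 times. With the mean in place of the median, the log2 difference of intralipid from PBS was -0.13 for the members past the floor, -0.11 for complex I, -0.0692 for III, -0.13 for IV and -0.21 for V. The difference of intralipid plus ANGPTL4 from intralipid was then 0.13 for the members past the floor, 0.11 for complex I, 0.0617 for III and 0.13 for IV. Without members identical on all arrays, the medians for intralipid against PBS were -0.15 for the members past the floor, -0.15 for complex I and -0.19 for IV. For ANGPTL4 against intralipid alone they were 0.16, 0.15 and 0.19, with 0.0548 for complex III. That setting leaves fewer genes, and identical ones pull a median to 0.

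With the higher floor (the 75th percentile), complex I had 3 genes at least 1.2-fold lower with intralipid and 4 higher once ANGPTL4 was added. With subunits only, these counts were 2 and 3, because 3 assembly factors and Ndufa4 drop out. Ndufaf1, the 1 gene past 1.2-fold upward between PBS and the array with ANGPTL4, left 0 such genes among these members and in complex I after centring, after quantile normalization and with subunits only. In place of 0 members 2-fold apart, thresholds of 1.5-fold and 1.2-fold gave 1 and 15 for intralipid against PBS and 1 and 17 for ANGPTL4 against intralipid alone. For ANGPTL4 against PBS, the threshold of 1.2-fold gave 1. Among the 17 members and 7 related genes plotted by array, no difference past 1.2-fold changed sign under the 3 scalings or with the mean over probe sets. Other genes named were not refitted one by one. The other medians and counts stayed within those limits. With 1 pooled array a group, the spread between cultures is unknown.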

Other observations

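Further probe sets of the same genes gave a second reading. There were 25 of them, for 17 members. With intralipid against PBS, 16 were lower as the chosen probe set was, 1 was higher in both, 1 was identical in both, 6 were identical on just one of the pair and 1 had the opposite sign. They may share probes or closely related gene copies with the chosen ones, so they are not independent. Cox7b differed by -0.48 on its second probe set and -0.32 on the chosen one, on the log2 scale, and Ndufc1 by -0.29 and -0.36. Atp5pb differed by -0.27 on its second probe set (log2 values of 8.90 with PBS, 8.63 after intralipid and 8.84 after intralipid plus ANGPTL4), but by -0.04 on the chosen one. Atp5md had the opposite sign, at 0.02 and -0.03.

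Among the 6 probe sets with several symbols, both that name Ndufb4 and Ndufb4b were lower with intralipid, at log2 values of 7.25, 6.93 and 7.28 for one and 7.44, 7.16 and 7.48 for the other, in the order PBS, intralipid, ANGPTL4 added. The 3 that name Cox7c and Gm12338 were higher with intralipid by 0.03 to 0.06 on the log2 scale, and the one that names Ndufs5 and its pseudogene was identical on all arrays. Signal from a gene and from a near-identical copy cannot be told apart on such probe sets. The second probe set of ND3 had log2 values of 9.17, 8.87 and 9.23, a smaller difference than on the chosen one.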
